A study of Homo sapiens with 5 samples.

Results

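The genes of PHF8 itself, its close relatives PHF2 and KDM7A, and 3 genes of its known partners and reported targets, ZNF711, KDM5C and HCFC1, were examined for binding of the PHF8 protein at their own promoters. These 6 genes were taken by name out of 20162 annotated protein-coding genes, and all of their annotated transcript starts were used. The data are ChIP-seq peak lists (sequenced DNA fragments of chromatin pulled down by an antibody, here against PHF8) from 3 replicates, named A, B1 and B2, of the established human melanoma line SKMEL-147. The labels give no treatment, genotype or second antibody, and 2 input libraries, A and B, are chromatin with no antibody. Each replicate has its own peak list, called against input, holding 21506, 20882 and 20120 peaks for A, B1 and B2, and the inputs enter here only through those lists. All samples are the same line in 1 state, so the values describe binding and compare genes, not conditions. The labels do not say whether the replicates came from separate cultures, so their spread may be technical. B1 and B2 share their letter with each other and with input B, and how they relate is not stated; n = 3 counts them as separate.

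The PHF8 protein belongs to the Jumonji C (JmjC) histone demethylases and takes methyl groups off lysine 9 of histone H3 and lysine 20 of histone H4. Its PHD finger binds trimethylated lysine 4 of histone H3, a mark of active promoters, and PHF2 and KDM7A carry the same pairing of a PHD finger with a JmjC domain. ZNF711 is a zinc finger protein that recruits PHF8 to some promoters, KDM5C removes methylation from lysine 4 of histone H3, and HCFC1 encodes the transcriptional adaptor HCF-1. PHF8, ZNF711, KDM5C and HCFC1 lie on chromosome X and have all been tied to X-linked intellectual disability, while PHF2 and KDM7A are autosomal.

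PHF8 peaks lay at the promoters of all 6 genes in every replicate. A gene was called bound where a peak overlapped the 1 kb on either side of any of its transcript starts in A, B1 and B2, and 60.2% of protein-coding genes met that rule, or 47.1% of those on chromosome X. The genes differed widely in strength: KDM5C and PHF2 ranked near the middle of all bound genes, KDM7A, PHF8 and HCFC1 in the lower part, and ZNF711 close to the bottom. Binding was also uneven within genes. Of 28 groups of starts in the 6 genes, formed by joining starts up to 500 bp apart, 10 were bound, beside 23.5% of such groups over all protein-coding genes. The bound groups hold 28 of the 33 protein-coding transcripts. With starts of protein-coding transcripts only, 10 of 14 groups were bound, a count with no share over all genes beside it. The count of unbound groups in these genes thus changes with the annotated transcripts used. An unbound group was also common over all genes, in 93% of bound protein-coding genes with several groups.

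Sequences at summits and at a bound and an unbound start of PHF8 are shown with every CG in capitals, the step from C to G that marks CpG island promoters, so that the starts and summits can be compared. All are from hg19, written 5′ to 3′ on the strand of the gene named. They cover, in order, the 100 bases before the bound canonical start of PHF8 (chrX:54070907-54071006, minus strand), which lie mostly in the gap between its peaks and not under them, the 100 bases before its unbound most upstream start (chrX:54075392-54075491, minus strand), and 101 bases centred on a summit at PHF2 in A (chr9:96338655-96338755, plus strand), KDM7A in A (chr7:139876619-139876719, minus strand), KDM5C in A (chrX:53254770-53254870, minus strand), HCFC1 in B1 (chrX:153237356-153237456, minus strand) and ZNF711 in A (chrX:84499218-84499318, plus strand).
PHF8 bound start: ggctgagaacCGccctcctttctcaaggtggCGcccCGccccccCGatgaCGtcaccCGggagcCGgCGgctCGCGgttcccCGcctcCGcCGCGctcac
PHF8 unbound start: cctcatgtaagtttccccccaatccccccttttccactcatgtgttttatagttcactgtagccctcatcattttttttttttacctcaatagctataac
PHF2 summit: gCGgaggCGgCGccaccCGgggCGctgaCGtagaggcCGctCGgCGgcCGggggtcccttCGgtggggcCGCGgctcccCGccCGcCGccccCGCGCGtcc
KDM7A summit: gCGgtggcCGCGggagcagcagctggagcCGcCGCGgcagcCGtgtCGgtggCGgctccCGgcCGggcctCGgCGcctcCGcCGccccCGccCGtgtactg
KDM5C summit: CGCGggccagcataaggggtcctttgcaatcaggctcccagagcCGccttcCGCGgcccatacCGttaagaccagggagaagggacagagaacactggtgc
HCFC1 summit: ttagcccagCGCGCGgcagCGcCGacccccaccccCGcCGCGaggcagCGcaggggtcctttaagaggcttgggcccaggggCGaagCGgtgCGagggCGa
ZNF711 summit: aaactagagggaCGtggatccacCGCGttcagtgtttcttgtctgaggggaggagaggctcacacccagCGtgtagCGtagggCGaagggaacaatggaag

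The bound PHF8 start held 14 CG steps in these 100 bases and the unbound one held 0. Among the summit windows the count ran from 19 at PHF2 and 17 at KDM7A to 6 at both KDM5C and ZNF711. The windows sit at unlike positions and depend on the replicate shown. The KDM5C one lies 431 bp upstream of the canonical start, while the strongest KDM5C summits in B1 and B2 lay 104 and 107 bp downstream. The HCFC1 one lies 137 bp upstream, and in A its strongest summit lay 1051 bp upstream.

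PHF8 (ENSG00000172943, X:53963109-54075391, minus strand in hg19) carried the protein's own peaks as a pair on either side of a gap near the canonical start at X:54070906. The stronger peak lay downstream of the start, and its fold enrichment over the background set in peak calling, taken at the summit, was 23.8, 13.0 and 9.86 in A, B1 and B2. The upstream peak had 12.5, 6.48 and 6.24, and so was the weaker of the pair in each replicate, at 0.525, 0.500 and 0.633 times the downstream peak. The deposited fold enrichment and p-value together give back the whole number of ChIP fragments piled up at a summit, here 60, 37 and 29 downstream and 31, 18 and 18 upstream. They also give the background, 1.57, 1.93 and 2.04 fragments in A, B1 and B2 at both peaks. All peaks of KDM7A and ZNF711 had these same backgrounds, so fold enrichment at these genes follows the fragment counts. Every one of these summits lay in an annotated UTR, 201 to 308 bp downstream of the canonical start or 529 to 552 bp upstream of it, where another PHF8 transcript begins 776 bp upstream.

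The gap between the peaks of the PHF8 pair measured 146, 237 and 233 bp in A, B1 and B2. The canonical start was inside the downstream peak in A and B1, 21 and 6 bp from its edge, and in B2 it fell in the gap itself, 38 bp outside the peak. Among bound protein-coding genes with a canonical start, 75% had that start inside a peak in all 3 replicates and 1.41% had it between peaks in all 3. PHF8 met neither description.

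Only part of the PHF8 gene was bound. Of its 11 groups of starts, those 776 bp upstream of the canonical start, at the canonical start and 1279 bp downstream of it were bound, and they hold 9 of the 13 protein-coding transcripts. The upstream and canonical groups shared the same pair of peaks, and the downstream group shared the stronger one, so the 3 groups are not separate binding sites. The most 5′ group of PHF8, 4485 bp upstream of the canonical start, holds 2 protein-coding transcripts and had no peak, and the nearest summit was 3933 bp away in A and 3910 bp away in B1 and B2. The remaining 7 groups lie 21678 to 99909 bp inside the gene, most of them without a protein-coding transcript, and had no peak in any replicate. With the annotated 5′ boundary of the gene as its only start, PHF8 would have been called unbound.

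PHF2 (ENSG00000197724, 9:96338866-96441869, plus strand), a demethylase of H3 lysine 9, had a single broad peak that covered its start. It reached fold enrichments of 31.2, 22.5 and 20.4 in A, B1 and B2 from 91, 71 and 67 fragments at the summit. The peak spanned 2076, 2190 and 2102 bp, beside a median of 1020, 964 and 929 bp of promoter peak sequence over bound protein-coding genes. PHF2 thus stood at the 96.4 ± 1.11 (SD, n = 3) percentile of promoter peak width, well above its percentile of height, which is given with the other genes below. The summit lay 161, 165 and 142 bp upstream of the canonical start, outside the gene, a range of 23 bp over the replicates. Its 3 transcripts start within 1 group, which was bound, and the sequence within 250 bp of the start had 83.6% G + C, at the 99.4 percentile of canonical starts.

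KDM7A (ENSG00000006459, 7:139784546-139876783, minus strand), which acts on H3 lysines 9 and 27, again had peaks flanking a gap just upstream of its start. The strongest peak, with fold enrichments of 23.4, 15 and 10.5 in A, B1 and B2, had its summit in a coding exon 114, 127 and 139 bp downstream of the start. A further peak on the upstream side reached 21.4, 13.0 and 8.87, or 0.917, 0.864 and 0.844 times the strongest. The downstream peak was the higher of the pair in each replicate, by less than at PHF8.

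The upstream peak of KDM7A lay 161, 175 and 179 bp inside KDM7A-DT, a divergent long noncoding RNA whose start is 201 bp from that of KDM7A. Promoter windows of the 2 genes overlap, and the peaks cannot be assigned to either. Weaker intronic peaks followed downstream, with fold enrichments of 4.29 and 10.5 in A, 7.16 in B1 and 5.26 in B2, the last of them starting beyond the 1 kb window. The 2 further groups of KDM7A starts, 57841 and 84842 bp inside the gene and without protein-coding transcripts, were not bound.

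**Figure D1:**
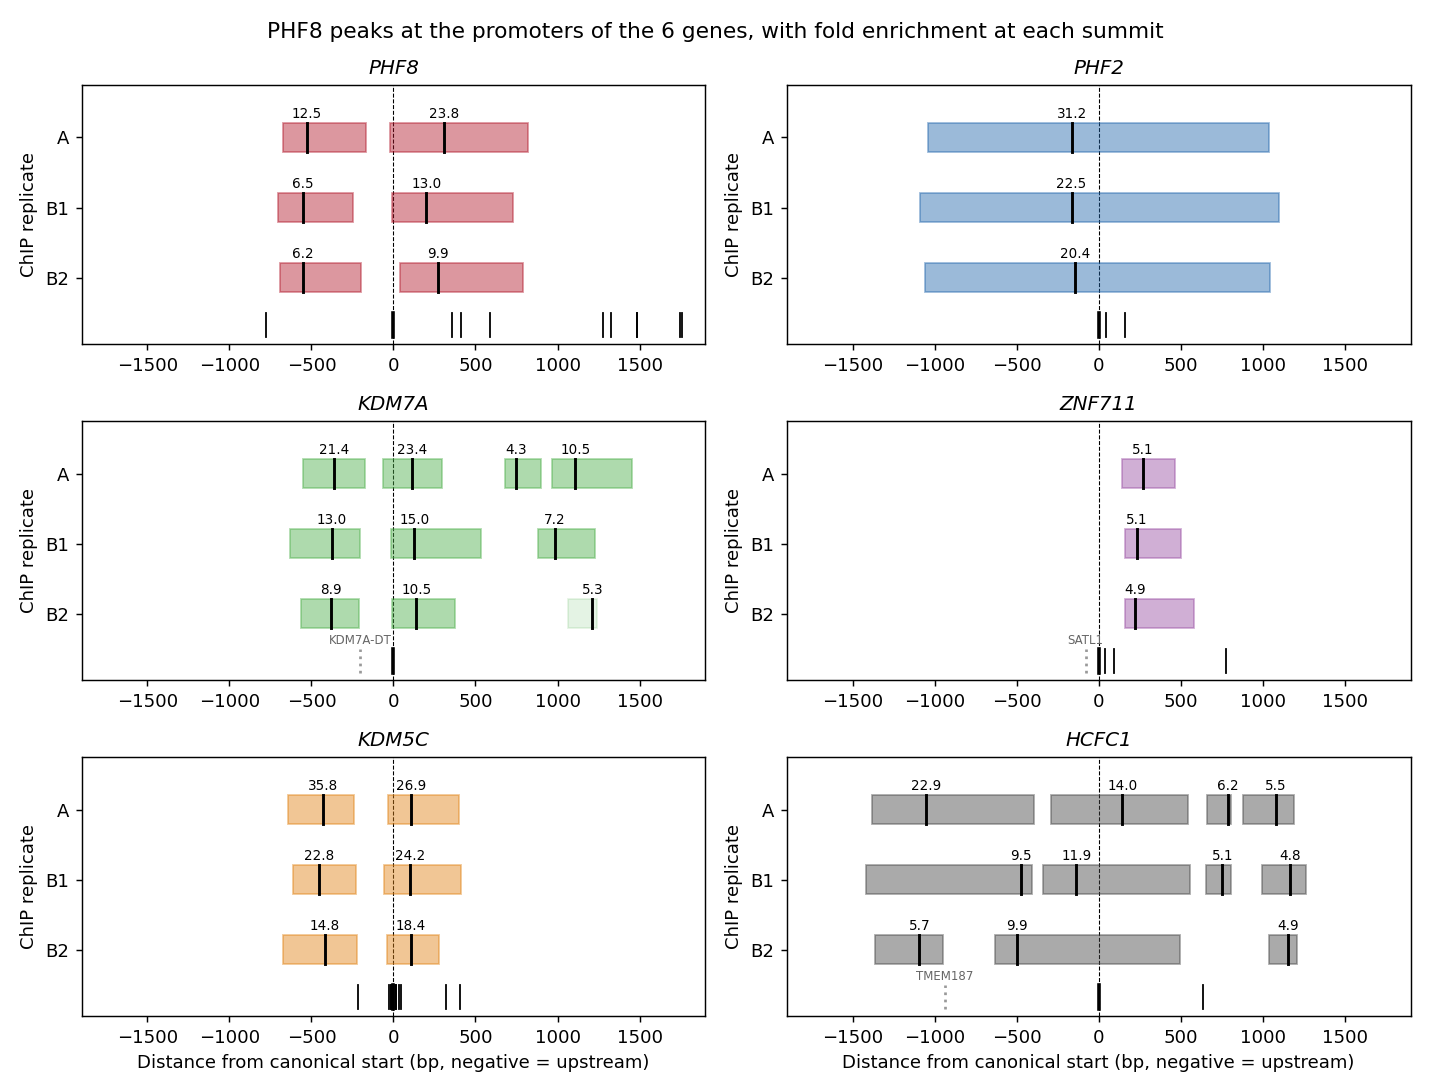
PHF8 peaks at the 6 promoters by distance from the canonical start in bp (negative is upstream), 1 row per replicate, with bars for peaks, black ticks for summits and the fold enrichment above each; the paler bar at KDM7A begins beyond the 1 kb window. Black marks under the rows are transcript starts and dotted grey marks are starts of other genes that share the peaks. PHF8, KDM7A and KDM5C show a pair of peaks around a gap near the start in every replicate, PHF2 shows 1 broad peak of 2076 to 2190 bp, and the ZNF711 peak begins 140 to 159 bp downstream of its start.

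KDM5C (ENSG00000126012, X:53205465-53254604, minus strand), a demethylase that acts on H3 lysine 4, had the strongest peak of the 6 genes in A and B1. Fold enrichments in A, B1 and B2 were 35.8, 22.8 and 14.8 at its upstream peak, and 26.9, 24.2 and 18.4 at its downstream peak. Which of the pair was stronger differed between replicates: the upstream peak led in A, at 1.33 times the downstream one, and trailed in B1 and B2 at 0.944 and 0.804 times. In A the background was 2.01 fragments at the downstream summit and 1.57 at the upstream one, so the 1.33 reflects background as well as fragments. The fragments in A were 91 upstream and 80 downstream. Both summits had a background of 1.93 in B1 and 2.04 in B2. The fragments there were 66 and 44 upstream against 70 and 55 downstream. The mean log2 ratio of the fold enrichments was 0.0046 ± 0.37 (SD, n = 3), and it includes the unequal backgrounds of A. The sign of the ratio in A differed from that in B1 and B2, which share a letter in the labels.

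The gap between the KDM5C peaks was 207, 169 and 177 bp in A, B1 and B2. In each replicate it held X:53254604, where 3 KDM5C transcripts begin, 215 bp upstream of the canonical start, while the canonical start itself was inside the downstream peak. The downstream summits were 104 to 110 bp past the canonical start, in a UTR, and the upstream summits lay outside the gene. All 9 protein-coding transcripts of KDM5C begin in the 1 bound group of starts, and the 6 groups 3389 to 26641 bp further in, none with a protein-coding transcript, were unbound.

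ZNF711 (ENSG00000147180, X:84498997-84528368, plus strand), the zinc finger partner of PHF8, had the weakest promoter peak of the 6 genes. Its fold enrichments in A, B1 and B2 were 5.06, 5.12 and 4.93, from 12, 14 and 14 fragments at the summit. For the 12 fragments of A, the exact Poisson 95% interval is 6.2 to 21, which covers counting error only. The −log10 q-values of 5.37, 5.98 and 5.66 were far below the median of all peaks, 56.0, 30.5 and 31.2, but were past the cutoff in all 3 lists.

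The ZNF711 peak was narrow, at 327, 347 and 422 bp, and lay in an intron 271, 235 and 221 bp downstream of the canonical start. That start was outside the peak in every replicate, with no peak on its other side, a state found at 3.28% of bound genes with a canonical start. The same peak served both groups of ZNF711 starts, and it also fell within 1 kb of SATL1, which runs the opposite way from 80 bp upstream, and of the microRNA gene AC003001.1. These genes therefore have identical values here. Fold enrichment was highest in A at the other 5 promoters, while the ZNF711 values stayed between 4.93 and 5.12.

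HCFC1 (ENSG00000172534, X:153213008-153237269, minus strand) had several peaks along its promoter. It carried 4 promoter peaks in A, 4 in B1 and 3 in B2, which together covered 2285, 2342 and 1712 bp, the 95.9 ± 2.65 percentile (SD, n = 3) of summed promoter peak width. That sum includes a peak of 991, 1016 and 412 bp in A, B1 and B2 that covers a start of the neighbouring gene TMEM187. The strongest of the HCFC1 promoter peaks, with fold enrichments of 22.9, 11.9 and 9.86 and 58, 34 and 29 fragments in A, B1 and B2, did not keep the same position. Its summit was 1051, 137 and 497 bp upstream of the canonical start in A, B1 and B2, a range of 914 bp.

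In A the strongest HCFC1 summit lay 11 bp from a start of TMEM187, a divergent protein-coding gene with its nearest start 936 bp away, and outside the 1 kb window of HCFC1. The peak nearest the HCFC1 start in A had its summit 145 bp downstream and a fold enrichment of 14.0. When only summits inside the window counted, the mean percentile of HCFC1 went from 22.1 to 17.0. The group of starts 634 bp downstream was bound as well, while those at 9551 and 17697 bp were not, the latter holding 1 of the 3 protein-coding transcripts.

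Some patterns could be counted over the 6 genes and set beside all bound protein-coding genes. The canonical start lay inside a peak in all 3 replicates at 4 of 6 genes (PHF2, KDM7A, KDM5C and HCFC1), beside the 75% given above. At 4 of 6 genes there were 2 or more promoter peaks in each replicate (PHF8, KDM7A, KDM5C and HCFC1), where 31.9% of bound protein-coding genes had as many. At 4 of the 5 genes with more than 1 group of starts at least 1 group was unbound, and 93% of bound genes with several groups had one. By the canonical start alone all 6 genes were bound, as were 58.1% of protein-coding genes. With 6 genes, these counts describe them and carry no test.

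To compare the genes with each other, the strongest promoter peak of each was ranked by fold enrichment among the bound genes of the same replicate, since the lists differ in scale: the median over bound protein-coding genes was 33.4, 19.4 and 18.4 in A, B1 and B2. KDM5C stood at the 58.4, 71.4 and 52.5 percentile in A, B1 and B2, a mean of 60.8 ± 9.69 (SD, n = 3 for this and the following means). PHF2 stood at 47.1, 64.5 and 61.1, a mean of 57.6 ± 9.23. These were the only members above the median of bound protein-coding genes, which was 53.0.

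KDM7A followed at 28.0, 35.1 and 19.5, a mean percentile of 27.5 ± 7.83. PHF8 came next at 28.7, 26.6 and 17.1, a mean of 24.2 ± 6.21, and HCFC1 at 26.7, 22.5 and 17.1, a mean of 22.1 ± 4.83. ZNF711 was last in every replicate at 0.345, 2.12 and 1.97, a mean of 1.48 ± 0.985.

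The order held in part. Of the 15 pairs of genes, 12 had the same sign in all 3 replicates, and the 3 that did not were PHF2 with KDM5C, PHF8 with KDM7A and PHF8 with HCFC1. KDM5C exceeded PHF2 by 3.22 ± 10.5 percentile points on average (n = 3), less than the spread. KDM7A exceeded HCFC1 in every replicate, but by 5.41 ± 6.26 points, and PHF8 exceeded HCFC1 by 2.06 ± 2.07 points, so KDM7A, PHF8 and HCFC1 did not differ beyond their spread. By contrast, PHF2 exceeded KDM7A by 30.1 ± 11.3 points and HCFC1 exceeded ZNF711 by 20.6 ± 5.63 points. The exact permutation test that flips signs over 3 replicates, two-sided, cannot give a p below 0.25, the value reached by each of the 12 pairs (0.312 after Benjamini-Hochberg adjustment over the 15), so no pair could pass a threshold of 0.05.

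**Figure D2:**
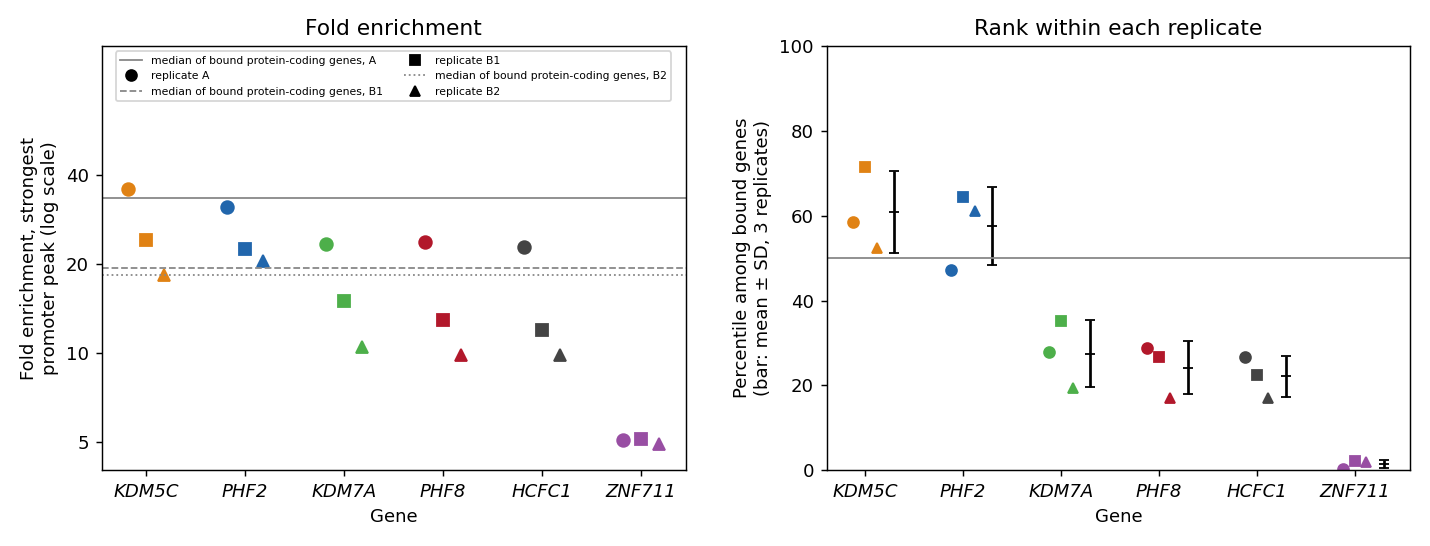
Left, fold enrichment of the strongest promoter peak of each gene in replicates A, B1 and B2 on a log axis, with the median of bound protein-coding genes in each replicate as a grey line (33.4, 19.4 and 18.4). Right, the percentile of the same peak among the bound genes of its replicate, with the mean and SD over 3 replicates as black bars and a grey line at 50; KDM5C and PHF2 average 60.8 and 57.6, KDM7A, PHF8 and HCFC1 lie between 22.1 and 27.5, and ZNF711 is at 1.48.

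Chromosome X moved with these ranks. The 409 bound protein-coding genes of chromosome X had a median of 24.7, and 4 of the 6 genes lie there. Ranked among the 507 bound genes of chromosome X, PHF8 stood at 54.0 ± 11.3, HCFC1 at 49.2 ± 7.54, KDM5C at 94.6 ± 3.76 and ZNF711 at 2.93 ± 2.02 (SD, n = 3). Among the 16033 bound autosomal genes, PHF2 stood at 56.5 ± 9.33 and KDM7A at 26.5 ± 7.62, close to their ranks over all genes. On this scale KDM5C was among the highest of its chromosome in all 3 replicates, at the 92.4, 98.9 and 92.4 percentile, while PHF8 and HCFC1 were near its middle, and ZNF711 remained near the bottom. Within each replicate the background was the same value at PHF8, ZNF711 and the autosomal KDM7A. Fold enrichment at these genes therefore follows fragment counts, and the background gives no measure of input on chromosome X. The part that chromosome X plays in these ranks was not tested.

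Bound and unbound starts of the 6 genes differed in sequence. Sequence within 250 bp of a start was called CpG-island-like at a G + C share of at least 0.5 and a ratio of observed to expected CpG of at least 0.6. All 8 groups of starts that met this at their 5′ end were bound, where 74.6% of such groups over all protein-coding genes were. Of the 20 groups that did not, 2 were bound, beside 6.83% over all genes, and both belong to PHF8 and share the peaks of its canonical start. The 8 CpG-island-like groups are not 8 separate binding sites either. The 2 groups of ZNF711 share their peak, and the 2 bound groups of HCFC1 share peaks in each replicate.

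The canonical starts of all 6 genes were CpG-island-like, with observed to expected ratios of 0.922 at PHF8, 1.08 at PHF2, 1.21 at KDM7A, 0.994 at ZNF711, 0.900 at KDM5C and 0.852 at HCFC1. Of all protein-coding genes with a CpG-island-like canonical start, 79.9% were bound there. The ratio did not follow the strength of the peaks in these genes: ZNF711 had a higher ratio than KDM5C and the weakest peak. The most upstream start of PHF8 had a ratio of 0.101 with 40.1% G + C, and the KDM7A start 57841 bp inside the gene held 0 CpG within 250 bp. The unbound HCFC1 start that begins a protein-coding transcript had 64.1% G + C but a ratio of 0.374.

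**Figure D3:**
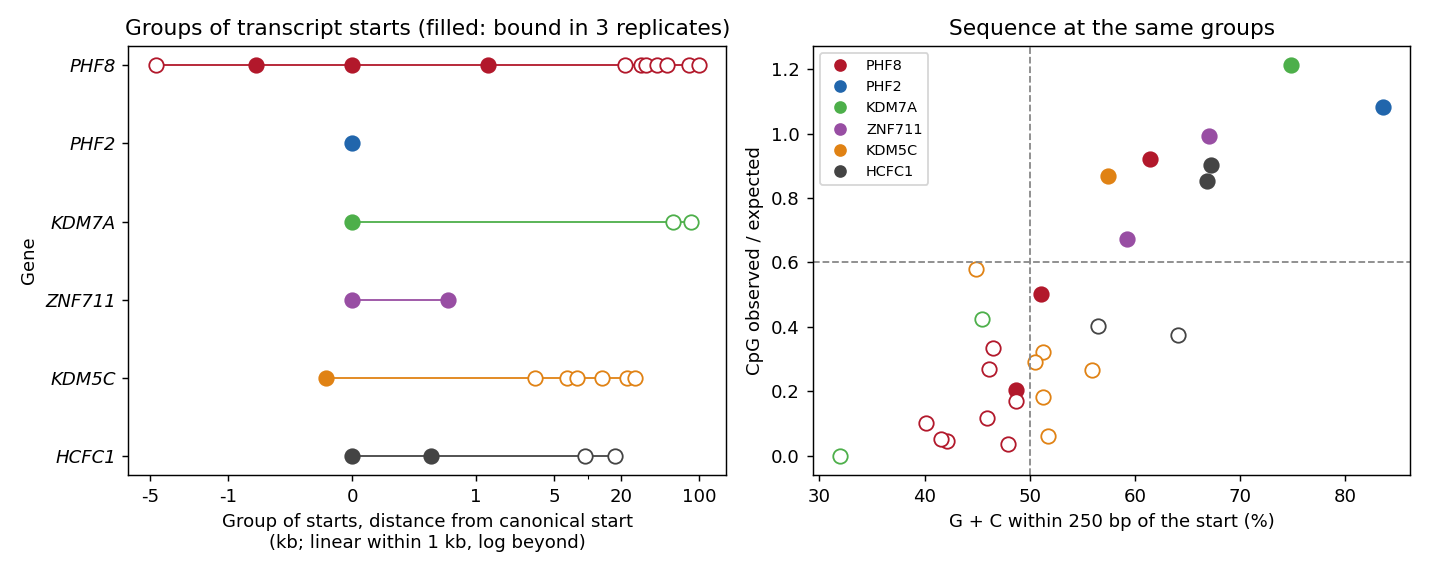
Left, the 28 groups of transcript starts by distance of their 5′ end from the canonical start in kb, linear within 1 kb and logarithmic beyond, filled where bound in 3 replicates. Right, G + C within 250 bp in percent against the ratio of observed to expected CpG for the same groups, with dashed lines at the 2 limits for a CpG-island-like start; all 8 groups past both limits are filled, and 2 of the other 20 are, both at PHF8.

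Short sequence words known from promoters were sought on both strands in the 300 bases from 250 before to 50 after each canonical start, over 19881 protein-coding genes. The word AAGATGGCG, the core of a YY1 site, was found at PHF8, KDM5C and HCFC1, 3 of the 6 genes, and in 2.85% of all promoters or 4.72% of bound ones. In each it stood within the first bases of the canonical transcript, beginning at base 21 of PHF8, base 9 of KDM5C and base 5 of HCFC1, counted from 1 at the start. PHF8 had another copy beginning 181 bases before the start. The first 30 bases of each transcript are shown because the word has the same strand and nearly the same place in all 3, and capitals mark it (hg19, minus strand, chrX:54070877-54070906, chrX:53254360-53254389 and chrX:153237240-153237269).
PHF8 first bases: ctcgcgagtccagccctcatAAGATGGCGg
KDM5C first bases: gacaaaccAAGATGGCGgcggcggcgctga
HCFC1 first bases: acacAAGATGGCGgctcccagggaggaggc

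The ETS word CCGGAAG was found 147 bases before the start of KDM7A and in 14.1% of all promoters. None of the 6 windows held CACGTG, the E-box of MYC and MAX (8.76% of promoters), AGGCCT, a core of ZFX and ZNF711 sites (10.8%), ACTACA, a core of ZNF143 and THAP11 sites (8.29%), or GCATGCGC, the NRF1 word (4.27%). No matches overlapped in these windows, and a match is a run of letters, not a measured site.

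The pathway around the 6 genes was bound widely but to different degrees, in lists chosen with earlier results of these data known. Of 19 other JmjC demethylases, 17 were bound, beside 60.2% of protein-coding genes, with a median percentile of 66.3 over the bound genes against 53.0 over all bound protein-coding genes. JMJD1C, of the KDM3 family of H3 lysine 9 demethylases, was the highest at 96.1 ± 1.18 (SD, n = 3), with fold enrichments of 58.2, 35.3 and 36.5. KDM6B, which acts on H3 lysine 27, was the lowest of the bound at 7.36 ± 0.902, with 12.5, 7.16 and 6.57. KDM4E had no promoter peak, and HR had one in A only, at a fold enrichment of 3.90.

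All 20 genes for factors associated with HCF-1 were bound, beside 60.2% of protein-coding genes, with a median percentile of 84.8. They ranged from ZNF143, a promoter-binding zinc finger factor, at 96.0 ± 1.44 (56.5, 38.0 and 35.4) to SETD1B, an H3 lysine 4 methyltransferase, at 16.4 ± 13.0 (24.5, 9.29 and 6.0). HCFC1 itself, at 22.1, was near the low end of that range. It lies on chromosome X, where bound protein-coding genes had a median of 24.7, while nearly all genes of this list are autosomal. The spread of SETD1B over replicates was wide.

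The list of writers and readers of methylation at H3 lysine 9 and H4 lysine 20 counts subunits of the condensin II complex among its genes. All 13 of them were bound, beside 60.2% of protein-coding genes, with a median of 54.8. NCAPH2, listed as a subunit of condensin II and not as a reader by itself, was the highest at 98.3 ± 1.43. Its fold enrichments were 69.0, 37.5 and 39.1. SETDB1, a methyltransferase for H3 lysine 9, was the lowest at 16 ± 3.45, with 16.1, 9.29 and 10.6.

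ZFX, the close relative of ZNF711, and 19 other X-linked genes, mostly of intellectual disability, gave 17 of 20 bound, beside 47.1% of protein-coding genes of chromosome X, and a median of 25.8, near the 24.7 of bound X-linked genes. PQBP1, a splicing-associated factor, was the highest at 63.4 ± 2.71 and RPS6KA3, a kinase, the lowest at 9.33 ± 4.64. SYN1 and IL1RAPL1, genes known for their work in neurons, had no promoter peak in any replicate. The lists hold different shares of X-linked genes, so their medians are not compared beyond these values.

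**Figure D4:**
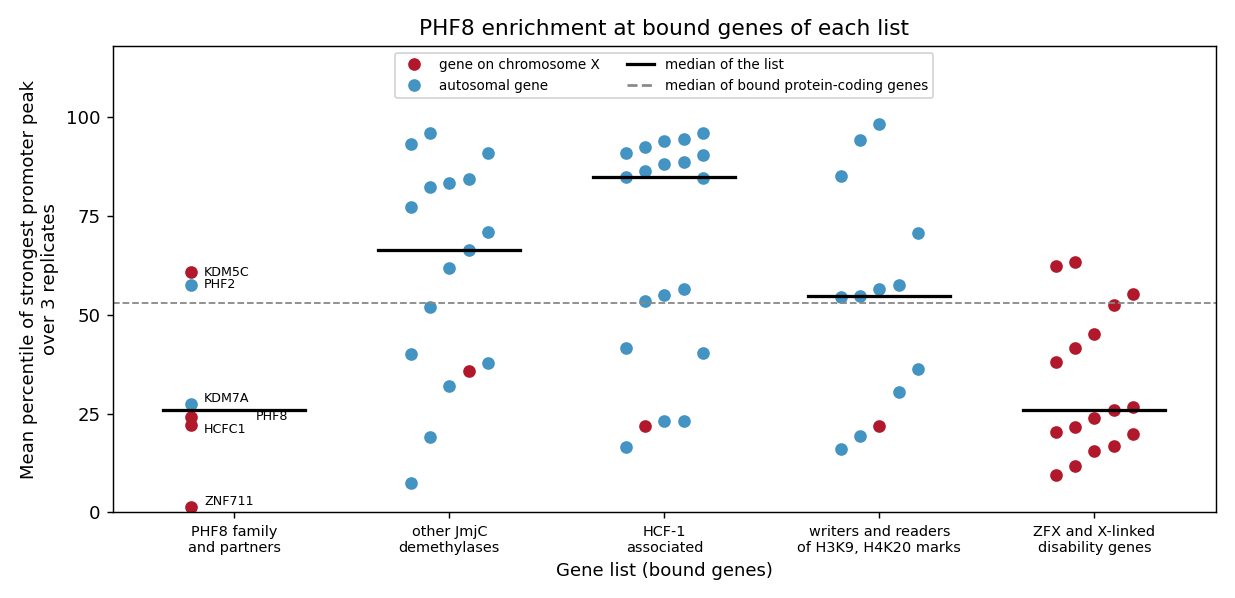
Mean percentile of the strongest promoter peak over 3 replicates for each bound gene of the 6 genes and 4 lists, with genes of chromosome X in red and autosomal genes in blue, the median of each list as a black bar and that of bound protein-coding genes (53.0) as a dashed line. The 6 genes and the X-linked list both have a median of 25.8, and the HCF-1 list has 84.8.

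Genes with the most similar values over the 3 replicates were found by the Euclidean distance of log2 fold enrichment of the strongest promoter peak. For PHF8 these were ZNF212, ZNF256 and PPP2R5A at distances of 0.024, 0.041 and 0.045, with 14 protein-coding genes within 0.1. For PHF2 they were ATP6V0D1, HDAC1 and CHMP6 at 0.029 to 0.051, with 30 genes within 0.1, and for KDM5C they were LRCH3, AKIP1 and DENND2B at 0.038 to 0.043, with 33. AKIP1 and DENND2B, both on chromosome 11, had identical values in every replicate and may share a peak. KDM7A was nearest to FANCM, PLCXD2 and CCDC149 at 0.065 to 0.080, with 9 genes within 0.1, and HCFC1 to ZNF138, ZNF883 and CAMK2N1 at 0.020 to 0.063, with 12. ZNF711 had 0 genes within 0.1, and the nearest were LOXL1, TRMT9B and APLN at 0.12 to 0.14. The likeness is of 3 peak heights only.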

How the data were processed

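The authors crosslinked and sonicated SKMEL-147 chromatin, aligned the reads to hg19 (Bowtie2, default parameters) and ran MACS in its narrow mode on each of 3 ChIP replicates against input, without pooling, per the labels and the methods of the study. Picard is named in the submitters' processing notes without a role. Treatment of duplicates and read totals are not given in the sources used here, so depth is known only through the fragments at each summit. The deposited lists give fold enrichment as a linear ratio, and p-values and q-values as −log10 values. The deposited score was not used. The largest deposited q-value was 0.0482 and the smallest fold enrichment 2.07, so the study's cutoffs (above 1.5, and a q-value read as below 0.05) removed no peak.

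Transcript starts were from GENCODE 44 lifted to GRCh37, the same build as hg19, on which 0 peaks ran past a chromosome end. Genes of the mitochondrial genome were left out. Fragments at a summit were recovered as the whole number n for which (n + 1) over (background + 1) is the fold enrichment and the Poisson tail gives the p-value, within 0.001 at all 39 member peaks. Percentiles were taken among genes bound in all 3 replicates. Differences between members used an exact sign-flip permutation test over 3 replicates. Scripts ran in Python 3.11.15 with NumPy 2.4.6 and SciPy 1.17.1, figures used Matplotlib 3.10.9, and the code was tested on simulated data.

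The members and gene lists were chosen with earlier results of these data known. Besides the members, the text names genes that share a member's peak, the 3 protein-coding genes most like each member, and from each list the unbound genes where 5 or fewer and the bound genes with the highest and lowest mean percentile. A further item under this rule is not reported here. Alternatives were a summit inside the window, windows of 500 bp or 2 kb, 1 start per gene, starts of protein-coding transcripts, a q-value below 0.001, fold enrichment above 4 and above 10, other joining of starts, ranking by p-value or among protein-coding genes, autosomes or chromosome X only, and leaving out each replicate. Ranking within chromosome class was added after seeing the data.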

Additional observations from a re-analysis of the deposited data

How the results depend on the processing

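All 6 genes stayed bound with windows of 500 bp or 2 kb, with the summit inside the window, with starts of protein-coding transcripts only, with a q-value below 0.001 and with fold enrichment above 4. The share of protein-coding genes bound under these settings ranged from 58.7% to 60.9%. With 1 start per gene 5 were bound, without PHF8, beside 54.0% of protein-coding genes. With fold enrichment above 10 there were 3 of 6, beside 49.6% of protein-coding genes, since PHF8 and HCFC1 kept such a peak in 2 replicates and ZNF711 in none, and 3 of 28 groups of starts were bound. Joining starts at gaps of up to 100 bp gave 16 bound groups of 35, and up to 1 kb gave 6 of 24. The counts of groups under these other settings have no share over all genes beside them and describe the 6 genes only. Leaving out each replicate kept 6 genes, beside 60.3% to 60.8% of protein-coding genes, and 10 groups. The median percentile of the 6 genes, 25.8, then ranged from 24 to 30.5. Ranked within chromosome class, that median was 51.6. Lists from 3 replicates of 1 line, without read depth, limit what can be said of weak peaks such as that of ZNF711. No paired analysis between groups of samples was possible because the 3 ChIP replicates form 1 group, with no other group to pair them with. Differences between genes were paired, as they were taken within each replicate.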
